A study of Mus musculus with 15 samples.

Results

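The Mcc locus was taken as every region of the deposited ATAC-seq table whose mm9 interval overlaps chromosome 18 from 44500000 to 45050000, a window of 550 kb around Mcc. This gave 21 of 43020 regions, and all 21 had enough counts to be tested. The window was chosen with results of these data known: peak_45415, inside it, was among the regions with the lowest accessibility in metastasis relative to primary lines in rounds 2 and 3. The values of that contrast, and of the contrasts that set Met1 against the primary, Met2 or Met3 lines behind that choice, are therefore given as a description, without p-values.

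ATAC-seq measures open chromatin through the places where a transposase can insert sequencing adapters. The 15 libraries came from colon cancer organoids, which are three-dimensional cultures of tumour epithelium, of the genotype labelled AKP, a genotype that all groups share. The organoids had passed through the colons of immunocompetent C57Bl6 mice. Each group had 3 lines: Met1, Met2 and Met3 were established from liver metastases found after the rounds 1, 2 and 3 of transplantation, and Primary2 and Primary3 from the colon tumours of the later rounds. Primary lines of the first round were not analysed here. The sources do not say which line gave rise to which, so p-values measure the spread among these lines. Marker genes were not placed in mm9 here, so the labelled cell type was not checked against them.

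Mcc is named for mutations found in human colorectal cancers. The human gene lies near APC, the tumour suppressor whose loss activates Wnt signalling in the intestine, and the mouse gene shares chromosome 18 with Apc. The MCC protein is a coiled-coil protein that has been reported to bind beta-catenin, the effector of Wnt signalling, and to restrain its activity in cultured human cells. In RefSeq's GRCm38 annotation Mcc lies between Dcp2, which encodes an mRNA decapping enzyme, and Ythdc2, which encodes an RNA helicase needed for meiosis in the mouse. Gene positions in mm9 were not used here, so no region is assigned to an exon, an intron or a promoter.

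The 21 regions spanned 44539740 to 44988883 and were 278 to 1809 bp wide (median 839 bp, against 762 bp on the rest of chromosome 18). They stood more densely than elsewhere on the chromosome, with 38.2 regions per Mb in the window against 17.4 outside it. Gaps between neighbours ran from 1.41 to 61.8 kb (median 14.7 kb). The nearest region before the first member lay 304 kb away and the nearest after the last 175 kb away. Most members were weak: 8 of the 21 reached the median signal of the 39952 tested regions.

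Library totals ran from 285633 to 5916109 counts, and the locus held 164 to 4460 of them. Primary3 replicate 2 was the shallowest library, with a median of 4 counts per member and 6 members at 0. There, 3 counts would correspond to 9.56 CPM (counts scaled to library size by TMM), so weak members cannot be read in that line. Met2 replicate 1 stood apart from its group at several members, and values at the stronger of these and at peak_45417 are given with and without it.

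As a share of chromosome 18 counts, accessibility across the locus as a whole was highest in primary lines, intermediate in Met1 and lowest in Met3. The 21 regions held 1.47%, 1.63% and 1.52% of chromosome 18 counts in Primary2 and 1.69%, 1.57% and 1.70% in Primary3. The Met1 lines held 1.19%, 0.805% and 1.08%. The Met3 lines held 0.339%, 0.412% and 0.401%. The Met2 lines were spread out, at 1.29%, 0.656% and 0.335%. Every metastasis line was below every primary line, whereas Met2 reached from above the Met1 lines to the level of Met3. The exact 95% interval, which covers counting error only, was 1.20% to 1.39% in Met2 replicate 1 and 0.286% to 0.391% in Met2 replicate 3, so these lines of a single group differed by more than counting error.

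**Figure D1:**
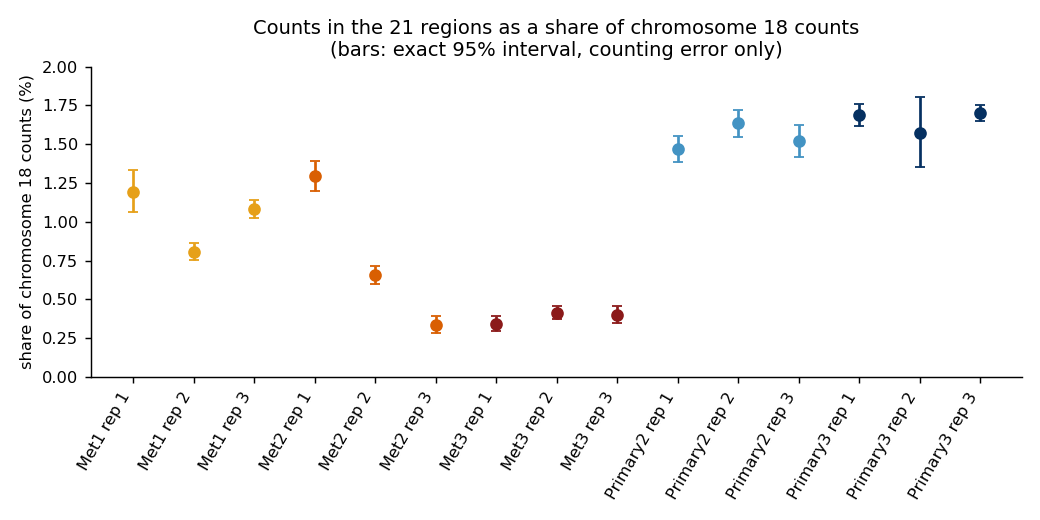
Share of chromosome 18 counts that fell in the 21 regions, in percent, for each of the 15 lines (points) with the exact 95% interval (bars, counting error only). The 6 primary lines lie between 1.47% and 1.70%, and the 3 Met3 lines between 0.339% and 0.412%.

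A single strong region weighed on these shares. Peak_45386 gave 34.5% of the locus counts in Met2 replicate 1 and 5.0% in Met3 replicate 1. Without it, the share was 1.10% to 1.28% in primary lines, 0.758% to 1.10% in Met1, 0.850%, 0.539% and 0.315% in Met2, and 0.322% to 0.375% in Met3. Met1 replicate 1 then reached the lowest primary line, and Met2 replicate 1 lay among the Met1 lines instead of above them. Because the whole population of cells is measured, fewer cells with an open region and lower accessibility in each cell cannot be told apart.

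The difference between lines was not the same along the locus. From the centromeric end, peak_45376 (chromosome 18, 44539740 to 44540705) was accessible in all lines. Its signal was 42.9, 50.9 and 54.0 CPM in Primary2, 44.4, 51.0 and 37.0 in Primary3, 32.8, 26.6 and 44.2 in Met1, 27.2, 29.6 and 18.2 in Met2, and the Met3 lines held 34.0, 35.1 and 24.0. The later metastasis lines were below the primary lines of their rounds, but by less than at most other members, with a log2 fold change of -0.71 ± 0.21 (SE) in rounds 2 and 3 together. At the other end, peak_45421 (44987884 to 44988883) held 38.9 ± 7.16 CPM in Primary2, 42.0 ± 15.8 in Primary3, 26.9 ± 8.27 in Met1, 33.6 ± 11.0 in Met2 and 29.6 ± 14.1 in Met3 (SD, n = 3 each), and the metastasis and primary lines overlapped. Its log2 fold change of -0.40 ± 0.26 equalled the median of the rest of chromosome 18, which was also -0.40, and was 0.02 once each library's chromosome medians were removed.

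**Figure D2:**
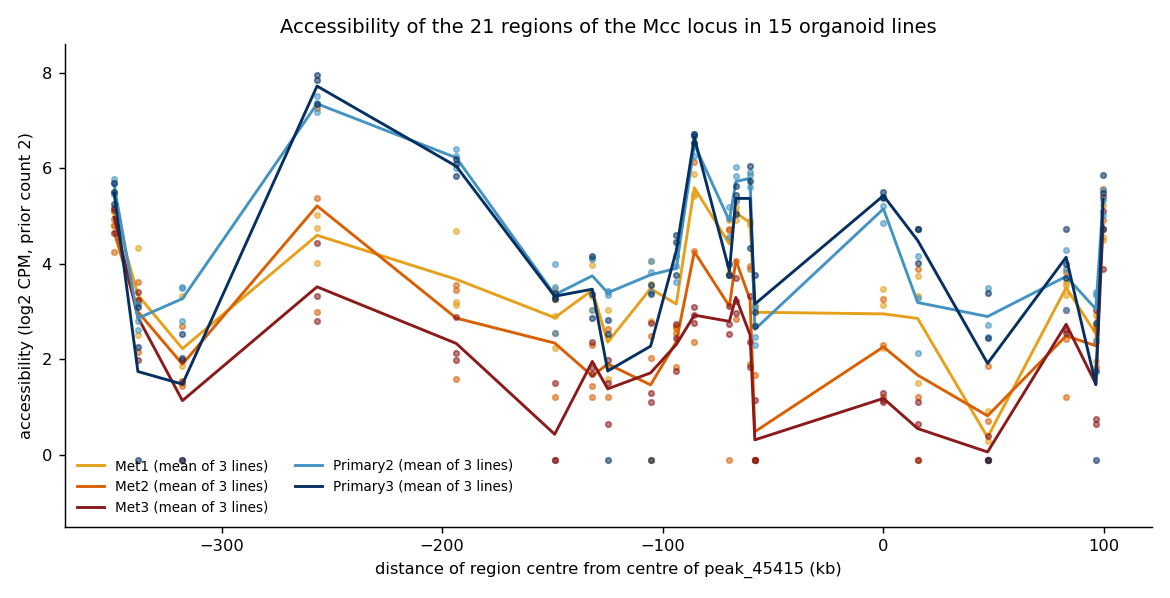
Accessibility (log2 CPM, prior count 2) of the 21 regions against the distance of each from the centre of peak_45415 in kb; points are lines and each coloured line joins the means of 3 lines of a group. The groups lie close together at the strong region at each end (peak_45376 and peak_45421) and apart at most regions between them.

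Between these ends lay the strongest member, peak_45386 (44631275 to 44633084), 257 kb before peak_45415. It held 181, 164 and 144 CPM in Primary2 and 229, 162 and 248 in Primary3. The Met1 lines held 26.0, 15.2 and 31.6 CPM and the Met3 lines 6.07, 20.6 and 9.06. Met2 replicate 1 stood at 153 CPM, inside the range of the Primary2 lines, while Met2 replicates 2 and 3 stood at 40.8 and 6.99. The log2 fold change between later metastasis and primary lines was -2.70 ± 0.43 (SE), and -3.40 without Met2 replicate 1.

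Next along the chromosome, peak_45393 (44694878 to 44695702) was low in all 9 metastasis lines. The primary lines held 75.3, 83.2 and 63.7 CPM in Primary2 and 56.3, 66.9 and 72.7 in Primary3. The metastasis lines held 7.93, 8.25 and 24.8 CPM in Met1, 9.96, 10.8 and 2.10 in Met2 and 3.04, 3.43 and 6.47 in Met3. Met2 replicate 1 here was among the other metastasis lines, unlike at peak_45386, which lies only 61.8 kb away. The log2 fold change was -3.58 ± 0.33.

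A group of 6 regions lay between 94 and 58 kb before peak_45415. The strongest, peak_45407 (44802477 to 44803884), held 90.2 ± 14.5 CPM in Primary2 and 99.2 ± 7.21 in Primary3 (SD, n = 3 each). In Met1 it held 41.9, 43.5 and 58.2 CPM, in Met2 69.1, 18.4 and 4.19, and in Met3 6.68, 7.63 and 5.83. The Met1 lines thus lay between the primary and the Met3 lines, without overlap on either side. The log2 fold change of later metastasis against primary lines was -2.71 ± 0.36 (SE), and -3.37 without Met2 replicate 1.

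Of the other members of this group, peak_45409, peak_45410, peak_45411 and peak_45412 also had every Met3 line below every Met1 line. At peak_45406, the closest to peak_45407, the Met1 lines (17.0, 5.39 and 5.37 CPM) and the Met3 lines (2.43, 5.72 and 4.53) overlapped. At peak_45411 (44827822 to 44829045) the primary lines held 19.1 to 65.4 CPM, the lowest being the shallow Primary3 replicate 2, the Met1 lines 27.2, 28.9 and 28.6, the Met2 lines 14.6, 13.9 and 2.80, and the Met3 lines 4.25, 2.67 and 9.06. At peak_45410 (44821427 to 44822513) the group means were 53.0 ± 12.9 CPM in Primary2, 41.0 ± 8.47 in Primary3, 32.6 ± 3.05 in Met1, 20.4 ± 16.9 in Met2 and 9.14 ± 2.71 in Met3 (SD, n = 3 each). Its log2 fold change in round 2 alone was -1.39 ± 0.41 (SE), and -2.21 without Met2 replicate 1, which held 39.2 CPM. In rounds 2 and 3 together the log2 fold changes were -2.81 ± 0.33 at peak_45411 and -1.81 ± 0.30 at peak_45410 (SE). Peak_45409 (44818675 to 44819461) differed from both in its Primary3 and Met2 lines. Its Primary3 lines (13.5 ± 1.33 CPM, SD, n = 3) were below Met2 replicates 1 and 2 (25.2 and 25.6). Met2 replicate 3 was at 0, and the log2 fold change of peak_45409 was -0.96 ± 0.46 (SE).

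Peak_45415 itself (44888369 to 44889383), the region by which the locus was picked, was low in every metastasis line. It held 27.8, 41.0 and 36.3 CPM in Primary2 and 44.4, 41.4 and 40.6 in Primary3. The values were 7.93, 3.81 and 10.1 CPM in Met1, 8.63, 4.04 and 1.40 in Met2. The Met3 lines held 1.21, 1.53 and 1.29 CPM, which rest on counts of 2, 4 and 2. The log2 fold change was -3.89 ± 0.37 (SE) in rounds 2 and 3 together, -2.89 ± 0.48 in round 2 and -4.89 ± 0.57 in round 3. Without Met2 replicate 1 the value for round 2 was -3.56.

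**Figure D3:**
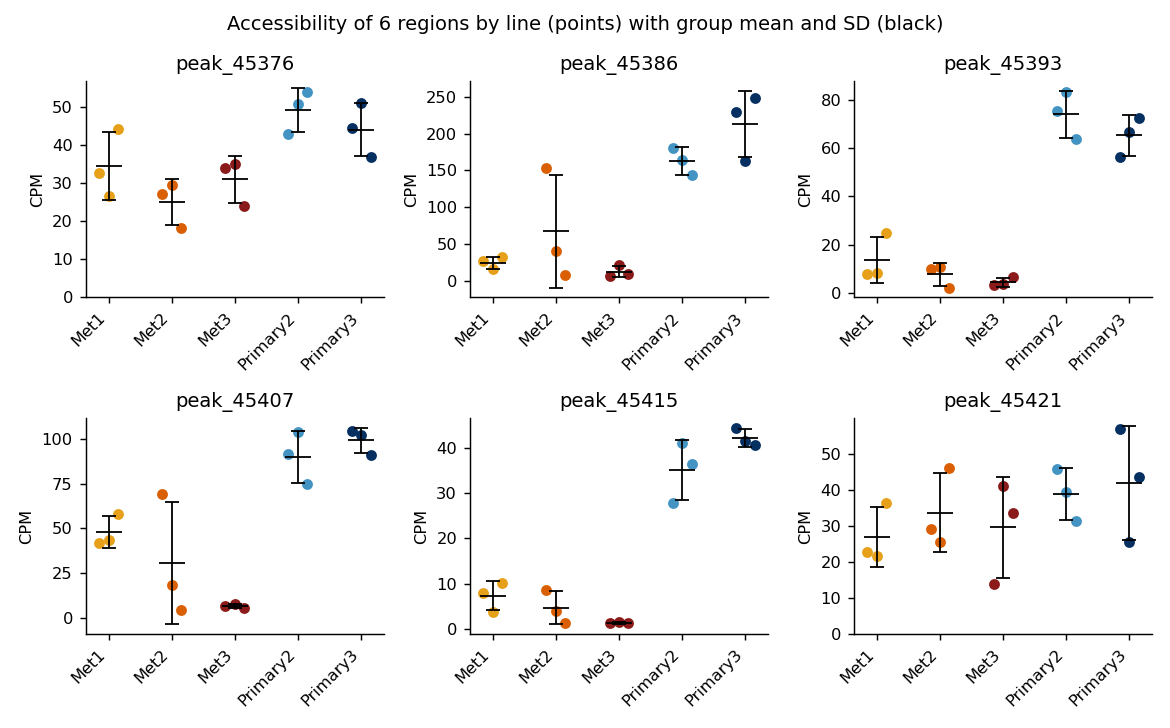
Accessibility in CPM of 6 regions in each line (points), with the group mean and SD (black, n = 3). Peak_45376 and peak_45421, at the ends of the locus, are accessible in all groups; peak_45386, peak_45393, peak_45407 and peak_45415 lie below 25 CPM in all Met3 lines, and Met2 replicate 1 stands at 153 CPM at peak_45386.

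The weaker members between the ends mostly showed the same direction. Peak_45412, 58 kb before peak_45415, held 4.03 to 7.66 CPM in primary lines other than the shallow Primary3 replicate 2 (12.7 CPM, from 4 counts) and 5.67 to 7.93 in Met1, but counts of 0 in 4 of the 6 later metastasis lines and of 5 and 2 in the others. Peak_45418, 47 kb after peak_45415, had 4 counts in all in Met1 and 1 in Met3, against 5.65 CPM in the median Primary2 line. Peak_45417 held 25.5, 25.5 and 15.3 CPM in Primary3, the second from 8 counts in the shallow Primary3 replicate 2, and at most 1.21 in Met3. Its Primary2 lines held 3.48, 8.75 and 16.9 CPM and overlapped the Met1 lines, at 9.06, 1.90 and 12.5. Met2 replicate 1 (13.9 CPM) was within the range of Primary2. At peak_45417 the log2 fold change was -3.07 ± 0.75 (SE) in rounds 2 and 3 together, and -4.56 without Met2 replicate 1. It was -0.95 ± 0.91 in round 2, where it was not called, and -5.18 ± 1.16 in round 3.

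Of the other weak members, peak_45397, peak_45398, peak_45400, peak_45404, peak_45406 and peak_45419 had log2 fold changes between -2.24 and -1.26 in rounds 2 and 3 together. Counts were few there. At peak_45397 the Met3 lines had counts of 0, 5 and 0, and its log2 fold change of -2.20 was -4.13 without Met3 replicate 2. The 3 members that were weak and not called in any contrast were peak_45378 (0.37 ± 0.47, SE), peak_45380 (-1.26 ± 0.59) and peak_45420 (-0.66 ± 0.56), of which peak_45378 and peak_45380 follow peak_45376 at the centromeric end and peak_45420 precedes peak_45421. Peak_45378 was the only member with a positive value.

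In counts, 16 of the 21 members were lower in metastasis lines of rounds 2 and 3 together and 0 were higher at an edgeR adjusted p under 0.05, where 8.98% of all tested regions were lower and 20.2% differed in either direction. At 8 members every later metastasis line was below every primary line of its round, against 4.96% of all tested regions and 13.5% of the rest of chromosome 18. On the rest of chromosome 18, 327 of 1434 tested regions (22.8%) were lower and 73 higher. The median log2 fold change was -1.94 over the 21 members, -0.40 over the rest of the chromosome and 0.04 over all tested regions. Without peak_45415 the count was 15 of 20 and the median -1.94. With chromosome medians removed, 13 members were lower, and peak_45376, peak_45400 and peak_45419 were no longer called. The locus was chosen by this contrast, and nothing is read from these counts.

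The rounds taken alone gave 6 lower members in round 2, where 2.77% of tested regions were lower and 6.21% differed in either direction, and 12 in round 3, where the shares were 4.52% and 10.2%. Neither round had a higher member. The 6 of round 2 were peak_45393, peak_45398, peak_45407, peak_45410, peak_45411 and peak_45415. Without Met2 replicate 1 the count in round 2 rose to 10 and took in peak_45386, and it was 3 without Met2 replicate 3 or Primary2 replicate 1 or 2. In round 3 it was 7 without Met3 replicate 1. Whether the difference between metastasis and primary lines itself differed from round 2 to round 3 was tested too. No member was called by edgeR (0 of 21; 0% of all regions) or by DESeq2 (0), while 5 members had an unadjusted edgeR p under 0.05. Peak_45386, the member that differed most between Met2 lines, had a difference of -2.82 ± 0.85 (SE, edgeR adjusted p = 0.647), and was called without Met2 replicate 3.

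The Met1 lines were not used to pick the locus, although the primary lines they are set against were. The metastasis lines of round 1 were low at some members and not at others. By the fit, 4 of the 21 members were lower in Met1 than in primary lines (4.94% of all tested regions were, and 9.47% differed in either direction; on the rest of chromosome 18, 181 of 1434 regions, or 12.6%, were lower), namely peak_45386 (-2.96 ± 0.57, SE), peak_45393 (-2.26 ± 0.39), peak_45415 (-2.41 ± 0.42) and peak_45418 (-3.49 ± 0.93). At 4 members every Met1 line was below every primary line, against 6.45% of all regions and 16.9% of the rest of chromosome 18. These were peak_45386, peak_45393, peak_45407 and peak_45415. The share of members with this separation was close to that on the rest of chromosome 18. Nothing is therefore read from the counts in Met1 about the locus as a whole, and the values of single members are a description. Without Met1 replicate 3 the value at peak_45393 was -3.09. Peak_45418, with 4 counts in Met1, was not called without Met1 replicate 2 (-4.50) or Met1 replicate 3 (-3.13). It had too few counts to be tested without Primary2 replicate 2 or Primary3 replicate 3. Only primary lines, where it was high, brought peak_45418 past the count filter, so its lower value in metastasis lines was in part set by the filter.

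The other 17 members were not called in Met1. Their log2 fold changes ran from -1.03 ± 0.47 at peak_45406 and -0.97 ± 0.40 at peak_45407 (SE) to 0.80 ± 0.56 at peak_45378. The median over the 21 was -0.55, against -0.39 on the rest of chromosome 18. Peak_45404 (0.00 ± 0.68), peak_45409 (0.06 ± 0.53) and peak_45412 (0.12 ± 0.64) had values near 0 in Met1, and of these only peak_45409 was not called lower in the later metastasis lines. Measured as a share of each member's mean over the 6 primary lines, the median member stood at 70.3%, 57.1% and 61.5% in the Met1 lines, at 58.3%, 31.8% and 11.5% in Met2 and at 12.3%, 15.5% and 18.1% in Met3. The primary lines themselves stood at 105.3%, 109.8% and 97.2% in Primary2 and at 95.1%, 67.8% and 101.4% in Primary3. The shallow Primary3 replicate 2, at 67.8%, was thus below Met1 replicate 1.

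**Figure D4:**
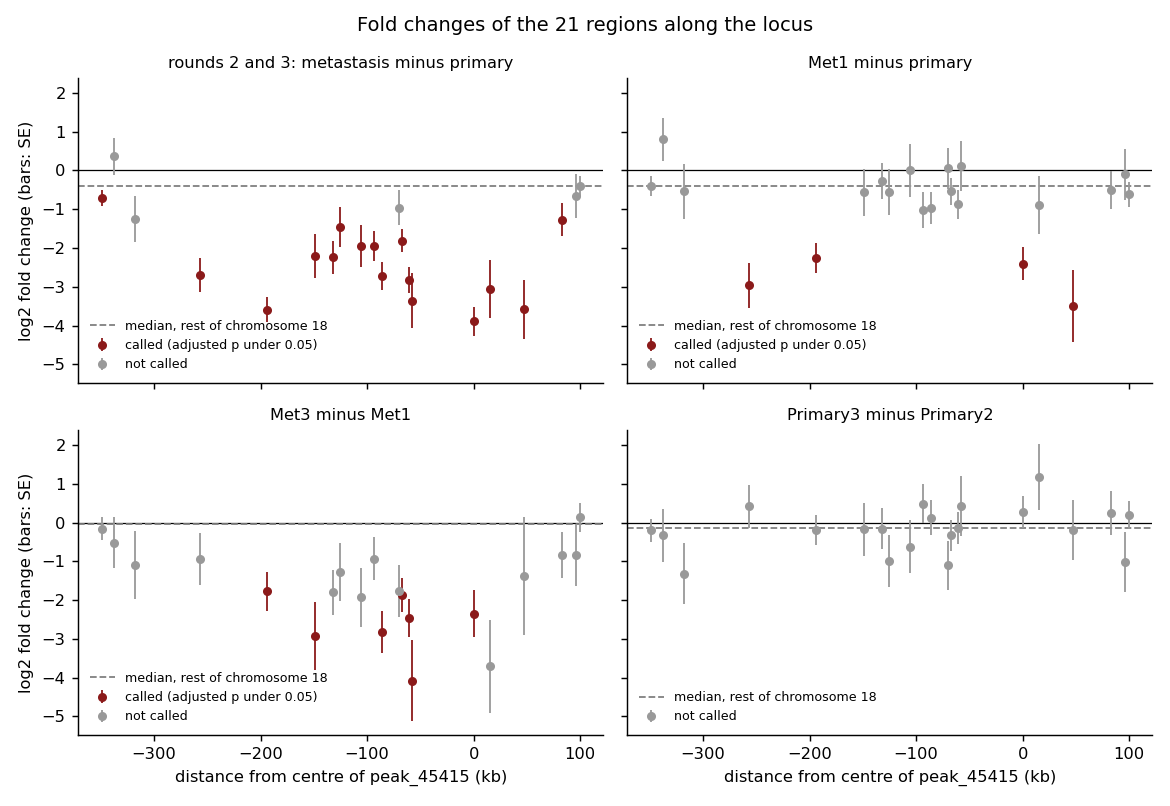
Log2 fold change of each of the 21 regions (points, bars are SE) against its distance from the centre of peak_45415 in kb in 4 contrasts; dark red points have an edgeR adjusted p under 0.05 and the dashed line is the median of the rest of chromosome 18. In Met1 against primary lines 4 points are called, and in Met3 against Met1 7 are, with peak_45393 and peak_45415 called in both.

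Met3 was compared with Met1 to follow the locus along the series of metastases; the locus was picked for low values in the Met2 and Met3 lines, so these values are a description and nothing is read from the counts. By the fit, 7 of the 21 members were lower in Met3 and 0 higher, where 3.56% of all regions were lower, 9.54% differed in either direction, and 55 of 1434 on the rest of chromosome 18 (3.84%) were lower. The log2 fold change was -2.82 ± 0.54 (SE) at peak_45407, -2.47 ± 0.49 at peak_45411 and -1.86 ± 0.44 at peak_45410. All 3 Met3 lines were below all 3 Met1 lines at each of them. Peak_45393 (-1.77 ± 0.50) and peak_45415 (-2.35 ± 0.60), already low in Met1, had lower values still in Met3. Neither was called without Met3 replicate 1 or without Met3 replicate 2. Peak_45415, whose Met3 values rest on counts of 2, 4 and 2, also lost its call without Met1 replicate 3 (-1.88). Peak_45397 and peak_45412, also among the 7, had 5 and 2 counts in all over the Met3 lines, so the sizes of these differences depend on single counts.

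The strongest member, peak_45386, was not called between Met3 and Met1 (log2 fold change -0.94 ± 0.67, SE), nor were the ends of the locus, peak_45376 (-0.15 ± 0.29) and peak_45421 (0.13 ± 0.37). In 12 of the 21 members every Met3 line was below every Met1 line, against 13.8% of all regions and 13.2% of the rest of chromosome 18. The median was -1.77 for the members and -0.03 for the rest of the chromosome. The count was 4 without Met1 replicate 3 and 3 without Met3 replicate 1 or 2; peak_45407 and peak_45411 remained in each of these fits. Without Met1 replicate 3, where peak_45393 stood at 24.8 CPM, its value was -0.94 and it was not called.

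Between Met2 and Met1, edgeR called 0 members lower and 0 higher, where 0.909% of all regions were lower and 3.55% differed in either direction. There were 5 members at an unadjusted p under 0.05, and 3 were called by DESeq2. The Met2 lines, too, entered the contrast by which the locus was picked, and nothing is read from these counts. Without Met2 replicate 1, edgeR called 5 lower, among them peak_45398, peak_45407 and peak_45411. Peak_45386 was 1.47 ± 0.61 higher in Met2 (log2 scale, SE), with Met2 replicate 1 at 153 CPM and replicates 2 and 3 at 40.8 and 6.99. Without Met2 replicate 3 it was called higher in Met2, at 1.99 ± 0.42. Between Met3 and Met2 0 members were called by edgeR (0% of all regions) and 0 by DESeq2, while 7 had an unadjusted edgeR p under 0.05. Of the strong members, peak_45407 had a difference of -2.14 ± 0.56 (SE, edgeR adjusted p = 0.373) and peak_45386 one of -2.40 ± 0.65 (adjusted p = 0.405). Both were called without Met2 replicate 3.

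No member was called between the primary groups, Primary3 and Primary2, by edgeR (0 of 21; 0% of all regions) or by DESeq2 (0), and 0 had an unadjusted edgeR p under 0.05. The median difference was -0.17 over the members and -0.14 over the rest of chromosome 18. At peak_45415 it was 0.27 ± 0.42 (SE, edgeR adjusted p = 0.96), and at peak_45393 -0.19 ± 0.39 (adjusted p = 0.97).

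Chromosome 18 as a whole was also lower in metastasis lines, which bears on each value above. The median of its other regions, relative to the mean of the 15 libraries, was -0.11 ± 0.05 in Met1, -0.11 ± 0.02 in Met2 and -0.09 ± 0.05 in Met3, and 0.36 ± 0.08 in Primary2 and 0.19 ± 0.17 in Primary3 (log2 scale, SD, n = 3 each). Relative to these medians the members stood at 0.78 ± 0.04 in Primary2, 0.47 ± 0.11 in Primary3, 0.36 ± 0.25 in Met1, -0.64 ± 0.78 in Met2 and -1.13 ± 0.17 in Met3. The rest of the chromosome was about as low in Met1 as in Met3. The locus was picked for low values in the Met2 and Met3 lines, so nothing is read from its lower level there than in Met1. In Met2 the 3 lines stood at -0.02, -0.38 and -1.51. On this measure the Met1 lines, at 0.60, 0.10 and 0.37, overlapped the Primary3 lines, at 0.51, 0.34 and 0.55.

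In windows of 550 kb laid along chromosome 18 from the locus in both directions, the locus ranked 3 from the lowest of 103 windows with at least 3 tested regions in rounds 2 and 3 together. The other 102 windows had a median of -0.38, and 87 of them were below 0. The lowest, at -2.33, was 1.65 Mb before the locus and held 11 regions. The next, at -1.95, was far from the locus, 36.3 Mb before it, and held 3 regions. A window 2.75 Mb after the locus with 18 regions stood at -1.71. The 4 windows with enough regions between the locus and the windows 1.65 Mb before and 2.75 Mb after it had medians of -0.59 to 0.47. The nearest single regions outside the window were weak: peak_45373, before it, had a log2 fold change of -0.57 with 294 counts in all, and peak_45424, after it, one of -0.92 with 79. In Met1 against primary lines the locus ranked 29th of 103, and the other windows had a median of -0.40.

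**Figure D5:**
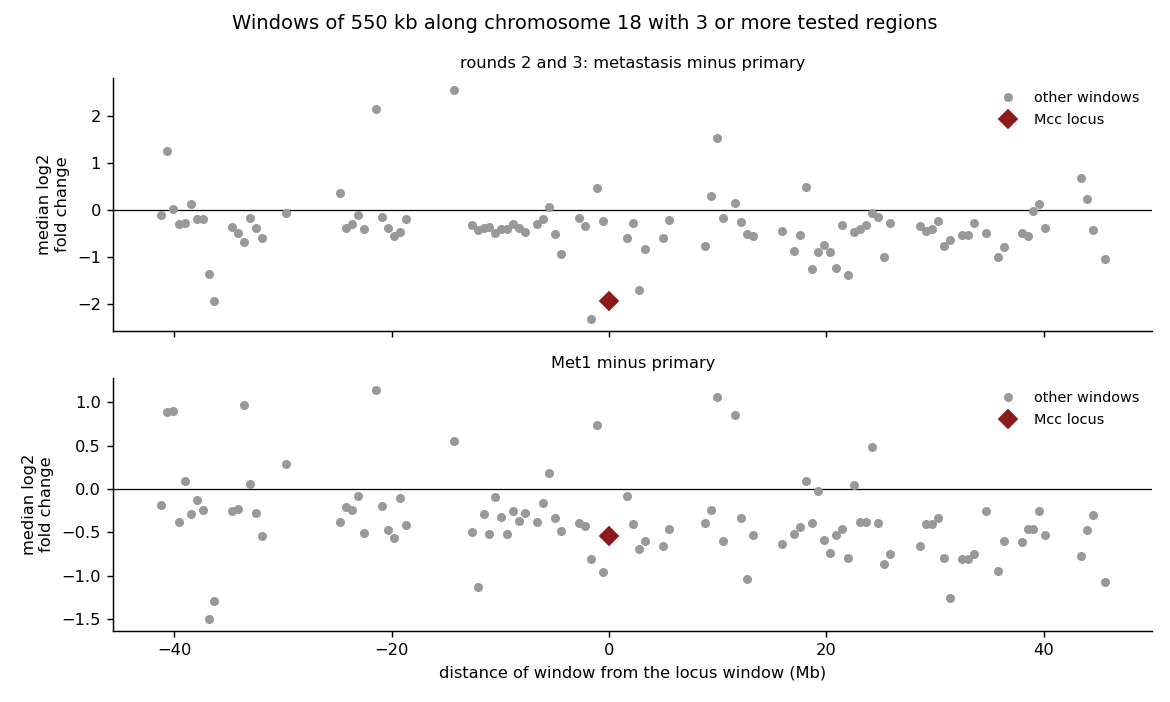
Median log2 fold change of the tested regions in each window of 550 kb along chromosome 18, against the distance of the window from the locus in Mb, for later metastasis lines and for Met1 against primary lines. The locus (diamond) stands at -1.94 in the upper panel, 3 from the lowest of 103 windows, and at -0.55 in the lower panel, among the other windows.

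Regions with a pattern over the 15 lines like that of peak_45415 were looked for over the whole table, as a description. The libraries fall into metastasis and primary lines, and much of any such correlation is that split. Inside the locus the correlation of log2 CPM with peak_45415 was 0.96 at peak_45393, 0.93 at peak_45386 and 0.93 at peak_45407, and it was lowest at peak_45378 (-0.27) and peak_45420 (0.10). The median over the other 20 members was 0.76, against 0.27 over the rest of chromosome 18. Outside the window the 5 highest were peak_104278 on chromosome 9 (94310431 to 94312172, r = 0.98), peak_30292 on chromosome 14 (121581302 to 121583122, r = 0.97), peak_51361 on chromosome 2 (19555057 to 19555734, r = 0.97), peak_46199 on chromosome 18 (64491755 to 64493217, r = 0.96) and peak_14619 on chromosome 11 (83692655 to 83693190, r = 0.96). On chromosome 18 the next were peak_44002 (12068940 to 12070473) and peak_46941 (76234891 to 76235419), both at 0.94. At peak_104278 the group means were 36.9 and 33.2 CPM in Primary2 and Primary3, and 8.42, 4.46 and 2.32 in Met1, Met2 and Met3.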

How the data were processed

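The authors deposited whole-number counts per region and library, in mm9, for regions whose names say they were called over all samples together. Of tools, the processing notes of the submitters list bedtools, MACS2, SAMtools, Picard and Bowtie, without roles. The sources used here do not say whether reads were shifted for the transposase or duplicates removed. A region set called over all samples can miss regions open in few lines.

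Groups and replicate numbers came from the sample titles, and columns were matched by library name. Counts were tested with edgeR 4.0.16 (limma 3.58.1, R 4.3.3) after filterByExpr (minimum count 10, minimum total 15; 39952 regions, 92.9%) and TMM scaling, in a quasi-likelihood model of 5 group means over all 15 libraries, with p-values adjusted by Benjamini-Hochberg over all tested regions and a threshold of 0.05. SE came from fold change and F. DESeq2 1.42.0 was an alternative. The fit was tested on simulated counts. CPM values use TMM library sizes; their log2 values carry a prior count of 2. Python 3.11.15, pandas 2.3.3, scipy 1.17.1 and matplotlib 3.10.9 served for the rest.

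Named with values were peak_45415, members at or above the median signal and members called in any contrast (18 of 21). The members, contrasts and this rule were chosen with earlier results of these data known. Regions near Wnt pathway genes were not analysed here. No sequence is shown.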

Additional observations from a re-analysis of the deposited data

Results flagged for a closer look

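Lines far from the rest were looked for among the 6 metastasis and the 6 primary lines of rounds 2 and 3 at the 18 named members. In 5 of 36 sets a line stood apart, where chance flags about 1 in 20 sets. Primary3 replicate 2 was the lowest primary line at peak_45400 (0 CPM), peak_45404 (0 CPM), peak_45418 (0 CPM) and peak_45411 (19.1 CPM). This is the shallowest library, in which 3 counts correspond to 9.56 CPM, and the part of its depth in these values was not tested. Met2 replicate 1 was the highest later metastasis line at peak_45417 (13.9 CPM), where the others held 0 to 1.40 CPM.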

How the results depend on the processing

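The counts of members called lower moved by more than 1.5 times in these settings. In rounds 2 and 3 together a minimum count of 30 gave 9 in place of 16, with 11 members left to test. For Met2 against Met1, where the main count was 0, scaling by total counts gave 1, removal of chromosome medians 1 and DESeq2 3. Leaving out each replicate in turn gave 13 to 16 in rounds 2 and 3 together, 3 to 10 in round 2, 7 to 12 in round 3, 3 to 5 for Met1 against primary lines, 0 to 5 for Met2 against Met1 (where 1 was higher without Met2 replicate 3), 3 to 10 for Met3 against Met1, 0 to 2 for Met3 against Met2, 0 for Primary3 against Primary2 and 0 to 1 for the difference between the rounds. The causes were not tested.

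The median of the locus relative to the rest of chromosome 18 was -1.54, also -1.54 with total counts and with a window of 1 Mb, and -1.82 to -1.48 with a replicate left out. With a minimum count of 30, the 11 members left had a median of -2.69 and the rest of the chromosome one of -0.40. Of 1213 alternative values of single members, 1117 kept direction and call, 95 lost the call and 1 turned (peak_45421, not called, at 0.017 in rounds 2 and 3 with chromosome medians removed). Of the 5 regions most like peak_45415, 5 remained with a prior count of 5 and 2 with Spearman's correlation. For Met3 against Met1, scaling by total counts gave all regions a median of -0.17 in place of -0.04 and moved their calls from 2389 higher and 1424 lower to 1871 and 1829, with 8 members lower in place of 7. Leaving out the 2 shallowest libraries together kept 15 of the 16.

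With the replicate number as a block, 15 members were lower in rounds 2 and 3 together, 6 in round 2, 11 in round 3, 4 for Met1 against primary lines and 6 for Met3 against Met1. Same-numbered lines did not deviate together (r from -0.21 to 0.16 over 30 pairs, above 0.1 in 2), and 5 of 15 lines correlated best with their own number. Whether same-numbered lines share an origin is not stated in the sources, and these correlations cannot decide it. At members with few reads in Met3, folds cannot be sized at this depth.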
